A study of Mus musculus with 12 samples.

Results

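Antisense noncoding RNA genes are transcribed from the strand opposite another gene, and 513 of them had enough reads to follow in hippocampal slices 1 hr and 3 hr after induction of chemical LTP. They are the genes that GENCODE release M21 types as antisense and that held at least 10 counts in at least 3 of 12 RNA-seq libraries, outside an interval of chromosome 12 in which the count tables listed 0 antisense genes. The release annotates 2959 antisense genes, of which 1973 were listed among the 41091 gene IDs of the tables and 513 (here the antisense genes) passed this minimum. The counts therefore chose them, and their being detected is a description. At the edge, 19 antisense genes passed with exactly 10 counts in the third highest library (1700030C14Rik ranged from 3 to 11 counts), and 27 others missed with 9 there (1700019G24Rik ranged from 2 to 14). Of the 1460 genes left out, 349 had 0 counts in all 12 libraries. Of the 513, 290 held 10 counts in all 12 libraries, and only C130021I20Rik and Gm16099 passed through a single group.

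Wild type mice of the C57BL/6 strain, 2 to 3 months of age, gave the acute slices, from which the dentate gyrus was trimmed away. For chemical LTP, slices were bathed in 50 uM forskolin, which raises cyclic AMP, first alone for 5 min and then together with raised KCl (30 mM) and Ca2+ (10 mM), 10 min in all. Control slices were bathed in 0.2% DMSO for the same 10 min. The 12 libraries form 4 groups of 3, control or LTP slices taken at 1 hr or at 3 hr, and each animal gave slices to LTP and to control at its time point. The study made libraries only from slices in which Arc rose by RT-qPCR, so the LTP groups were selected for a response. It set 1 hr control replicate 2 aside as an outlier, and this library is left out of the tests below while its values are printed.

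An antisense RNA can meet its coding neighbour in several ways. Divergent pairs start close together and run apart from a shared promoter region, convergent pairs run into each other at their ends, and some antisense genes lie wholly inside a coding gene. Antisense transcription is known to act on the opposite gene in either direction at some loci, the best known in imprinting, where a noncoding RNA such as Kcnq1ot1 or Airn keeps neighbouring genes silent on 1 parental chromosome. In neurons, noncoding transcription also starts beside promoters and enhancers when activity-dependent genes are switched on, and the cyclic AMP response element (CRE) is the letter motif through which cyclic AMP and calcium act on many of these promoters.

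The 513 antisense genes were sorted by how they met a coding gene on the other strand. In 460 the annotated span overlapped at least 1 coding gene, and the one with the longest overlap was taken as the coding partner, which 456 had in the tables (446 distinct genes). The antisense gene lay inside the partner in 141 cases (27.5%), was convergent in 117 (22.8%), was divergent in 108 (21.1%, start sites within 1000 bases) and overlapped the partner around its start in 76 (14.8%). It spanned the whole partner in 18 (3.51%), and 53 (10.3%) had no coding gene opposite. The median antisense gene had 1821 exonic bases in 3 exon blocks. In 368 of them exons lay opposite exons of the partner, so that both RNAs hold complementary letters.

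Complementarity is shown for 2 pairs in which most of the shared exonic bases are coding and in which antisense and coding RNA differed in opposite directions between the controls. Each pair of lines is the same 30 bases in the coding sequence of the partner, read 5′ to 3′ from the GENCODE M21 transcripts of either strand (GRCm38), and each is the reverse complement of the other. Lsr encodes the lipolysis-stimulated lipoprotein receptor, a protein of tricellular junctions, and its stretch is chr7:30958352-30958381. Fat4 encodes a giant protocadherin, and its stretch is chr3:38887271-38887300.
Gm4673 (+ strand): tctccgtccactacttgggggagaagacct
Lsr (- strand): aggtcttctcccccaagtagtggacggaga
C230034O21Rik (- strand): gagctggaaaggaccaccaggttgaccaca
Fat4 (+ strand): tgtggtcaacctggtggtcctttccagctc

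Promoter stretches are shown for Kcnq1ot1 and Trmt61b, the antisense genes with the smallest p in the 3 hr comparison. RefSeq promoter windows (GRCm38.p6, 250 bases before to 50 after a start site) matched 259 antisense genes by symbol, of which 158 had a window whose start lay within 100 bases of the GENCODE start. Each stretch is printed 5′ to 3′ on the strand of the gene, with the CRE core TGACG, or CGTCA where it reads on the other strand, in capitals. The Kcnq1ot1 stretch is chr7:143296572-143296601, and the Trmt61b stretches are chr17:71598837-71598866, chr17:71598758-71598787 and, past the start site, chr17:71598726-71598755.
Kcnq1ot1: tcgtggctgccaCGTCAccaaggtcttggt
Trmt61b, distal: acgccaaggcggTGACGcactctgtcggcg
Trmt61b, proximal: cggcggtggctaCGTCAcacgtgtgcgaca
Trmt61b, past the start: acctgctccggaCGTCAggctctctaagga

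The core on either strand was found in 52 of the 158 antisense windows (32.9%), in 63 of 225 windows of coding partners (28%) and in 6822 of all 32817 windows of the reference (20.8%). The full CRE, TGACGTCA, which contains the core on both strands, was in 4 of the 158 (2.53%) against 1.79% of all windows, and the AP-1 motif TGANTCA in 9 (5.7%) against 7.81%. Of the antisense genes that later rose at 3 hr, 5 had such a window and 3 of these held the core, Kcnq1ot1, Trmt61b and C130021I20Rik, of which C130021I20Rik passed the count minimum through the 3 hr LTP group alone. Of the coding partners that rose at 1 hr or 3 hr, 15 had a window and 3 of these held the core (20%). These matches describe letters in a window.

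Library totals ran from 37118382 to 50815001 counts, and 3 counts, the lowest level read here as detection, corresponded to 0.0584 to 0.0791 CPM (counts scaled to library size, with TMM factors over the 12 libraries). The 6 CA pyramidal neuron markers summed to 2551 to 3939 CPM over the libraries. All 4 dentate granule cell markers were also detected, at a sum of 120 to 221 CPM, although the dentate gyrus was trimmed. The 4 microglia markers summed to 139 to 152 CPM in the 1 hr controls and 96.7 to 109 in the 3 hr controls, and the 4 oligodendrocyte markers to 4226 to 5148 and 5786 to 7115. In bulk tissue, fewer cells of a type and less RNA per cell cannot be told apart.

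Antisense genes were low in level. All 513 together took 0.104% to 0.126% of the counts of a library. The median antisense gene held a mean of 23.6 counts per library or 0.544 CPM, 168 reached a mean of 1 CPM and 14 a mean of 10 CPM. These 14 gave 51.8% of all antisense counts, and Kcnq1ot1 alone, whose gene model has 93092 exonic bases, gave 18.6% at a mean of 217 CPM. Per kb of exon, the median was 0.385 CPM for antisense genes and 5.88 for their coding partners, and the median antisense gene stood at 7.25% of its own partner.

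The level per kb was above that of the partner in 71 of 456 pairs (15.6%). By arrangement these were 28 of 117 convergent pairs, 18 of 137 inside pairs, 9 of 108 divergent pairs, 9 of 76 start overlap pairs and 7 of 18 spanning pairs. Among the 6 antisense genes highest per kb, 4933431E20Rik (10.1 CPM per kb) lay opposite Eps8l3, which was near 0 (0.0152 CPM per kb). Dlx6os1, the noncoding RNA of the Dlx5/Dlx6 locus that specifies GABAergic interneurons, stood at 7.08 CPM per kb against 1.07 for the homeobox gene Dlx6. Tug1, a widely expressed noncoding RNA, and its divergent partner Morc2a were at similar levels, 10.1 and 8.47 CPM per kb.

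**Figure D1:**
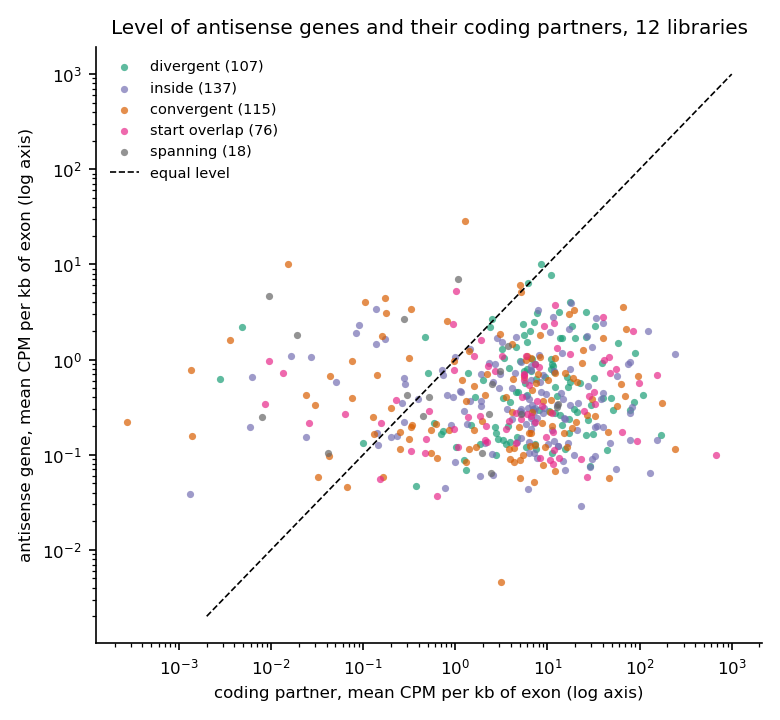
Mean level over 12 libraries of each antisense gene (vertical, CPM per kb of exon, log axis) against its coding partner (horizontal, same unit, log axis), 1 point per pair, coloured by arrangement, with the numbers of pairs in the legend and a dashed line at equal level. Of 456 pairs, 453 are drawn and 3 with a partner at 0 are not. Most points lie below the line, and 71 antisense genes lie above their partner.

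The imprinted and X-linked antisense RNAs were looked at as a list of 6 names, of which Kcnq1ot1, Airn, Nespas and Tsix were among the 513. Airn, opposite the growth factor receptor gene Igf2r, ranged from 0.606 to 1.34 CPM over the 12 libraries, and Igf2r from 97.7 to 117. Nespas, opposite the G protein gene Gnas, ranged from 0.237 to 0.607 CPM. Tsix, antisense within the X-inactivation centre, ranged from 0.214 to 0.559 CPM. Of these 4, only Kcnq1ot1 was called in any comparison below. At 3 hr after LTP the log2 fold change was 0.71 for Kcnq1ot1, 0.61 (SE 0.304) for Tsix, 0.39 (SE 0.234) for Airn and 0.01 (SE 0.277) for Nespas.

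LTP and control slices were first compared at 1 hr, to ask which antisense genes responded early. Of 455 tested antisense genes, 0 were called by the edgeR quasi-likelihood test at Benjamini-Hochberg adjusted p under 0.1 and fold change over 1.2, and 0 by DESeq2 and by limma-voom. Of all 17736 genes tested, 0.789% were called (0.778% higher and 0.0113% lower). At an unadjusted p under 0.05, 30 antisense genes passed, 17 higher and 13 lower (6.59%, against 6.71% of all genes). The smallest p, chosen after seeing the values, belonged to Grin1os, opposite the NMDA receptor gene Grin1. It held 0.181, 0.517 and 0.118 CPM in control replicates 1, 2 and 3 and 0.364, 1.16 and 0.564 CPM in the LTP libraries (log2 fold change 2.21, SE 0.599, edgeR adjusted p = 0.21). The groups overlapped once control replicate 2 was counted. The median log2 fold change of the antisense genes was 0.05 and that of all genes -0.00, and the median SE was 0.39 against 0.115.

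Coding genes opposite an antisense gene did rise at 1 hr. At that time the endothelial and mural markers summed to 91.0 to 100.1 CPM in the controls and 75.2 to 80.2 after LTP. The astrocyte markers summed to 1687 to 1729 and 1625 to 1678. On average only Aldoc among these was lower after LTP (804 to 733 CPM), while Aqp4, Gja1 and Gfap were higher. The part of these cell types in the 1 hr results was not tested. Of 413 tested partners, 6 rose and 0 fell (1.45%, against 0.789% of all genes), and none of their antisense genes was called. The early response kinase gene Pim1 held 28, 32.1 and 28.8 CPM in control replicates 1, 2 and 3 and 40.2, 44.9 and 35.9 CPM in the LTP replicates (log2 fold change 0.52, SE 0.0971, edgeR adjusted p = 0.0208). Its antisense gene Gm26885 (chr17:29446919-29491925) held 0.181, 0.352 and 0.379 CPM in the controls and 0.583, 0.237 and 0.635 CPM after LTP, and the groups overlapped. The difference of Gm26885 was 0.80 (SE 0.531, adjusted p = 0.897).

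Jun, the AP-1 transcription factor gene, rose by 0.61 (SE 0.0966, edgeR adjusted p = 0.00544), from 134, 148 and 103 CPM to 192, 171 and 175 CPM. Junos (chr4:95051534-95167318), which starts 688 bases away on the other strand, was flat, with 1.11, 1.18 and 1.16 CPM in the controls and 1.14, 1.24 and 1.06 CPM after LTP. Its log2 fold change was 0.02 (SE 0.274). The remaining partners that rose were Ifrd1, Gpr19, the helix-loop-helix repressor Bhlhe40 and the Ras association gene Rassf1, by 0.38 to 0.65, and their antisense genes Gm7008, 2810454H06Rik, 0610040F04Rik and Gm9917 had log2 fold changes of -0.20, -0.03, 0.49 and 0.36 with edgeR adjusted p from 0.948 to 0.997. The call of Jun was lost without control replicate 3 and that of Gpr19 without control replicate 1, while those of Bhlhe40, Pim1 and Rassf1 were lost without control replicate 1 or LTP replicate 1, with animal as a block and control replicate 2 restored together and, except for Rassf1, without control replicate 3. Of 56 listed activity-regulated genes, 3 lay opposite an antisense gene, Jun, Pim1 and Mbnl2. Mbnl2, a splicing regulator gene, and its antisense gene Gm26679 were not called at either time after LTP.

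At 3 hr, LTP and control slices differed in 17 of 445 tested antisense genes (3.82%), 15 of them higher and 2 lower. Without C130021I20Rik, which met the count minimum through the 3 hr LTP group alone, it was 16 of 444, 14 higher and 2 lower. Over all 17508 genes tested, 6.6% were called, 5.07% higher and 1.53% lower, and the median SE was 0.257 for antisense genes and 0.105 for all genes. At an unadjusted p under 0.05, 50 antisense genes passed (11.2%), against 20.2% of all genes. Among those with a mean of 1 CPM or more, 10 of 168 were called (5.95%, against 7.2% of all genes at that level), and among those under 1 CPM 7 of 277 (2.53% against 4.03%). The median log2 fold change was 0.04, and that of all genes -0.00. The count rested on every library: it fell to 3 without 3 hr control replicate 1, to 2 without control replicate 2 or 3, to 3 without LTP replicate 1 and to 10 without LTP replicate 3, and it rose to 27 without LTP replicate 2. DESeq2 called 9. The 4 astrocyte markers summed to 1722 to 1846 CPM in the 3 hr controls and 1663 to 1698 after LTP. Gfap alone of these averaged higher after LTP. The 5 inhibitory neuron markers summed to 450.5 to 493 and 496 to 498. On average Gad1 and Gad2 were higher after LTP, and Slc32a1, Sst and Pvalb lower. The part of these cell types in the 3 hr results was not tested.

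Trmt61b and Kcnq1ot1 had the smallest p at 3 hr and kept their call in all 13 alternatives run. Trmt61b (chr17:71557027-71598755, - strand) is typed antisense in this release and runs into the cell cycle kinase activator gene Spdya, but its symbol is that of a mitochondrial tRNA methyltransferase, so the type is that of the annotation. It held 11.4, 9.8 and 8.91 CPM in the 3 hr controls and 21.3, 23.7 and 18.8 CPM after LTP. All LTP libraries lay above all controls, for a log2 fold change of 1.10 (SE 0.116, edgeR adjusted p = 0.00299). At 1 hr it held 7.62, 8.77 and 10.6 CPM in the controls and 13.1, 10.9 and 10.5 CPM after LTP, and the groups overlapped at that time (log2 fold change 0.34, SE 0.148, adjusted p = 0.705). Spdya stayed between 0.211 and 0.606 CPM over the 12 libraries and was not called.

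Kcnq1ot1 (chr7:143203458-143296549, - strand), the imprinted noncoding RNA inside the potassium channel gene Kcnq1, held 157, 132 and 170 CPM in the 3 hr controls and 251, 240 and 257 CPM after LTP. It rose by 0.71 on the log2 scale (SE 0.091, edgeR adjusted p = 0.00587), with no overlap between the groups. At 1 hr the controls held 232, 200 and 198 CPM and the LTP libraries 272, 286 and 206 CPM. The 1 hr difference was 0.26 (SE 0.115, adjusted p = 0.725). Without LTP replicate 3, the library at 206 CPM, it was 0.39 and was called (adjusted p = 0.0134, with 0.0134 to 1.00 over the alternatives), and the test of the change between 1 hr and 3 hr gave 0.47 (SE 0.172, adjusted p = 0.637). Kcnq1 itself was near 0 throughout, between 0.166 and 0.632 CPM. Between the controls Kcnq1ot1 was lower at 3 hr, by 0.52 on the log2 scale (SE 0.127, adjusted p = 0.00818), and the LTP libraries of 3 hr, at 249 ± 8.67 CPM (SD, n = 3), lay above the 3 hr controls and within the range of the 1 hr LTP libraries.

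**Figure D2:**
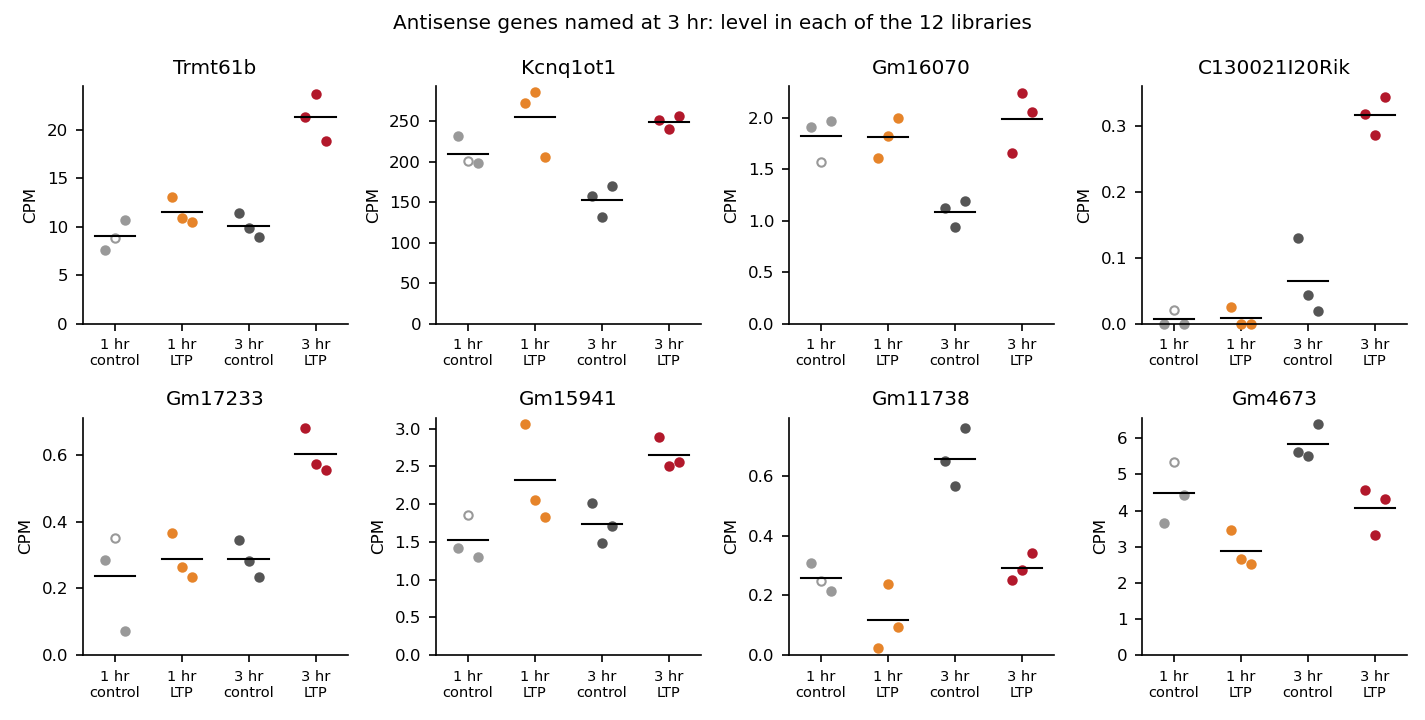
Level (CPM, vertical, from 0) of the 8 antisense genes named in the 3 hr comparison in each of the 12 libraries, by group. Points are libraries, black lines are means of 3, and the open point is 1 hr control replicate 2, left out of the tests. In every panel the 3 hr LTP points lie wholly above or wholly below the 3 hr controls, with Trmt61b at 18.8 to 23.7 CPM against 8.91 to 11.4.

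The other antisense genes named at 3 hr were lower in level, and each lost its call in 3 to 5 of the alternatives. Gm16070 (chr1:17676027-17727646), divergent from Crispld1, held 1.12, 0.936 and 1.19 CPM in the 3 hr controls and 1.66, 2.24 and 2.06 CPM after LTP. It rose by 0.88 (SE 0.183, edgeR adjusted p = 0.0365), while Crispld1 did not pass the test (0.21, SE 0.113). Its call was lost without any 1 of the 3 controls, with adjusted p up to 0.185. Gm15941 rose by 0.62 (SE 0.157, adjusted p = 0.0663), from 2.01, 1.48 and 1.71 CPM to 2.89, 2.51 and 2.56 CPM, and its partner 4930447A16Rik was at or near 0 in every library. Gm17233, inside Rcbtb2, rose by 1.08 (SE 0.26, adjusted p = 0.0583) from 0.346, 0.283 and 0.234 CPM to 0.682, 0.571 and 0.554 CPM, and Rcbtb2 had a log2 fold change of 0.01 (SE 0.084). The calls of Gm15941 and Gm17233 were lost without any 1 of the controls or without LTP replicate 1, and that of Gm17233 also by DESeq2.

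C130021I20Rik, with no coding gene opposite, held 6, 2 and 1 counts in the 3 hr controls and 14, 13 and 13 counts after LTP, and 0 or 1 in the 1 hr libraries. It passed the count minimum through the 3 hr LTP group alone and so had to be higher there, and its fitted log2 fold change of 2.29 (SE 0.511, edgeR adjusted p = 0.0476) is a description. The 2 antisense genes that fell were Gm11738 and Gm4673. Gm11738, inside the axonemal dynein gene Dnah17, fell from 0.649, 0.566 and 0.759 CPM to 0.25, 0.286 and 0.343 CPM (log2 fold change -1.16, SE 0.257, adjusted p = 0.0464). Gm4673 fell from 5.62, 5.51 and 6.38 CPM to 4.57, 3.32 and 4.33 CPM (log2 fold change -0.51, SE 0.14, adjusted p = 0.0852), while Lsr opposite it did not pass the test (0.12, SE 0.209). At 1 hr Gm4673 was at 3.67, 5.34 and 4.43 CPM in the controls and 3.45, 2.66 and 2.52 CPM after LTP, with no overlap (-0.48, SE 0.192, adjusted p = 0.64). The calls of C130021I20Rik, Gm11738 and Gm4673 were lost without 3 hr control replicate 2, control replicate 3 or LTP replicate 1, those of Gm11738 and Gm4673 also without control replicate 1, and those of C130021I20Rik and Gm11738 by DESeq2.

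The 9 antisense genes called at 3 hr beyond the named ones all rose, by 0.50 to 1.30 on the log2 scale, at means of 0.293 to 2.71 CPM and with edgeR adjusted p from 0.0749 to 0.0928. They were Prox2os, Gm16008, Gm17116, Gm12534, Gm9934, Gm16758, Gm11940, 4921504A21Rik and Zmiz1os1. Zmiz1os1 and Gm16758 were the only antisense genes called together with their coding partner, in 363 pairs tested on both sides, and both are named after their values were seen. Zmiz1os1 went from 0.649, 0.762 and 0.739 CPM to 1.09, 1.14 and 1.08 CPM (0.64, SE 0.18), and Zmiz1, a transcriptional coregulator gene, from 23.8, 24.4 and 25.1 CPM to 36.1, 26.5 and 45.5 CPM (0.57, SE 0.166, adjusted p = 0.099). Gm16758 went from 1.17, 1.28 and 1.15 CPM to 1.82, 1.63 and 1.79 CPM (0.55, SE 0.154), and Mdga1, a synaptic adhesion gene, from 56.3, 62.5 and 65.6 CPM to 80.6, 70.5 and 112 CPM (0.52, SE 0.151, adjusted p = 0.0974). In both pairs all 3 LTP libraries lay above all controls on either strand, and all 17 called antisense genes had groups without overlap. The call of Zmiz1os1 was lost when any 1 of the 6 libraries was left out and that of Gm16758 when any but LTP replicate 2 was, and both were lost by DESeq2, with total counts as scaling and with no filter beyond 1 count. Zmiz1os1 was also not called with animal as a block. The partners lost their calls with limma-voom and when any 1 of the controls or LTP replicate 1 was left out, and Zmiz1 also without LTP replicate 3 and with the size factors of DESeq2.

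**Figure D3:**
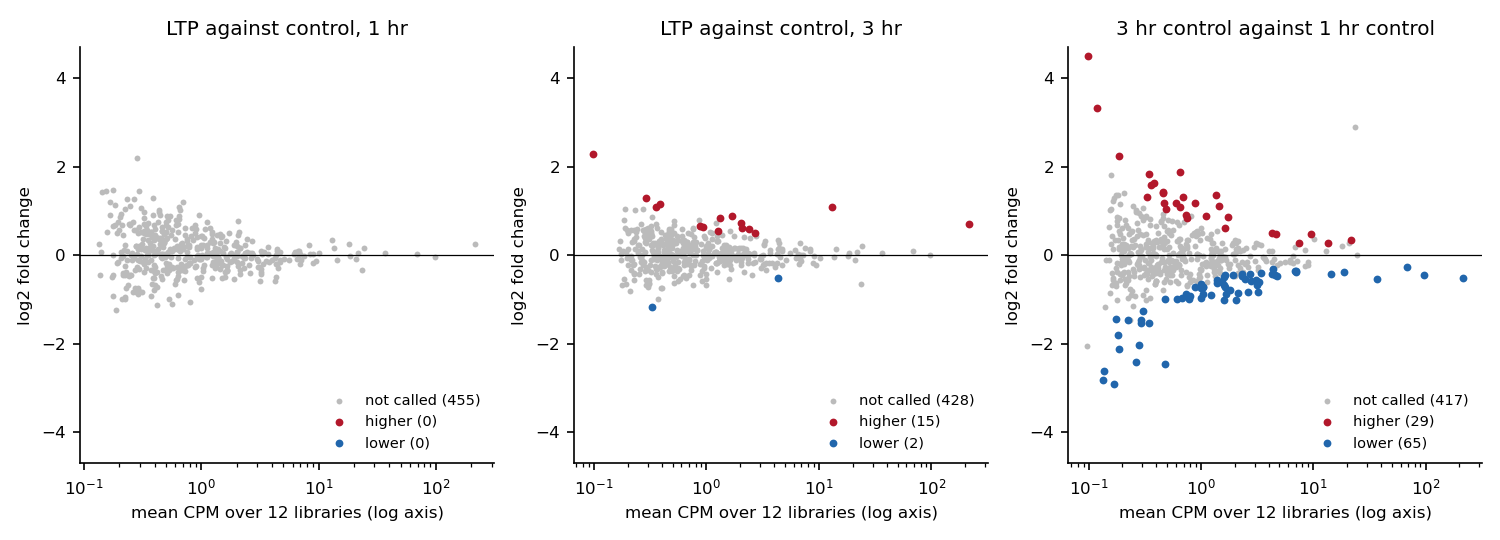
Log2 fold change (vertical) of each tested antisense gene against its mean CPM over 12 libraries (log axis) in 3 comparisons, LTP against control at 1 hr and 3 hr and 3 hr control against 1 hr control. Red points are called higher and blue points lower, with counts in the legends (0, 17 and 94 called). The scatter is wider at low levels.

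Coding partners also differed at 3 hr. Of 413 tested partners, 33 rose and 7 fell (9.69% called, against 6.6% of all genes). In the 38 pairs with a called partner and a tested antisense gene, the antisense gene had the sign of the partner in 22 and was called in 2. In the 31 of these pairs whose partner rose, 19 antisense genes had a log2 fold change above 0 (median 0.16). An antisense gene that was not called may still have changed, and the difference between the strands was not tested. Pax6, a neural transcription factor gene, rose by 1.10 (SE 0.117, edgeR adjusted p = 0.00299) from 19.6, 19.7 and 15.3 CPM to 40.3, 34 and 41.3 CPM. Pax6os1 held 0.108, 0.152 and 0.253 CPM in the controls and 0.227, 0.22 and 0.185 CPM after LTP, and the groups overlapped. Grin2b, which encodes the GluN2B subunit of the NMDA receptor, rose by 0.64 (SE 0.0835, adjusted p = 0.00633), and its divergent antisense gene Gm26653 held 0.324, 0.327 and 0.253 CPM in the controls and 0.454, 0.352 and 0.422 CPM after LTP. The Gm26653 groups did not overlap, but its difference (0.45, SE 0.268, adjusted p = 0.382) did not pass the test.

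At Gpr19, which encodes an orphan receptor, the antisense and coding values parted. Gpr19 rose at 3 hr from 19.6, 20.7 and 19.7 CPM to 29.9, 34.7 and 29.5 CPM (0.66, SE 0.0832, edgeR adjusted p = 0.00557). The antisense gene 2810454H06Rik, which starts 617 bases away, held 1.02, 1.09 and 1.01 CPM in the controls and 0.659, 0.637 and 0.765 CPM after LTP. The antisense level was lower in all 3 LTP libraries, and the difference of -0.59 (SE 0.186, adjusted p = 0.123) missed the threshold. Kdm7a, a histone demethylase gene, and Hectd2, a ubiquitin ligase gene, rose by 0.44 and 0.58, and their convergent antisense genes 4930599N23Rik and Hectd2os both had a log2 fold change of -0.29 (adjusted p 0.569 and 0.473). Pim1 rose by 0.65 at 3 hr, and Gm26885 held 0.606, 0.588 and 0.759 CPM in the controls and 0.977, 1.08 and 0.87 CPM after LTP, with no overlap (0.59, SE 0.207, adjusted p = 0.151).

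Over all pairs, antisense and coding changes had the same sign about as often as opposite signs. At 1 hr 198 of 376 pairs (52.7%) had the same sign, with a Spearman rho of 0.03 across pairs, and at 3 hr 189 of 363 (52.1%), with a rho of 0.04. The pairs share libraries, so these are descriptions. At 3 hr the rho was 0.31 in the 64 pairs that overlap around the start of the coding gene, where 11 of 12 pairs with a called partner had the same sign, 10 of them with both above 0. Of these 64 pairs 33 (51.6%) had the same sign, and the rho of this arrangement at 1 hr was 0.03 over 65 pairs. For the other arrangements at 3 hr the rho was 0.03 in 96 divergent, -0.01 in 101 inside, -0.06 in 89 convergent and -0.24 in 13 spanning pairs. Zmiz1os1/Zmiz1 and Gm26885/Pim1 are start overlap pairs.

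**Figure D4:**
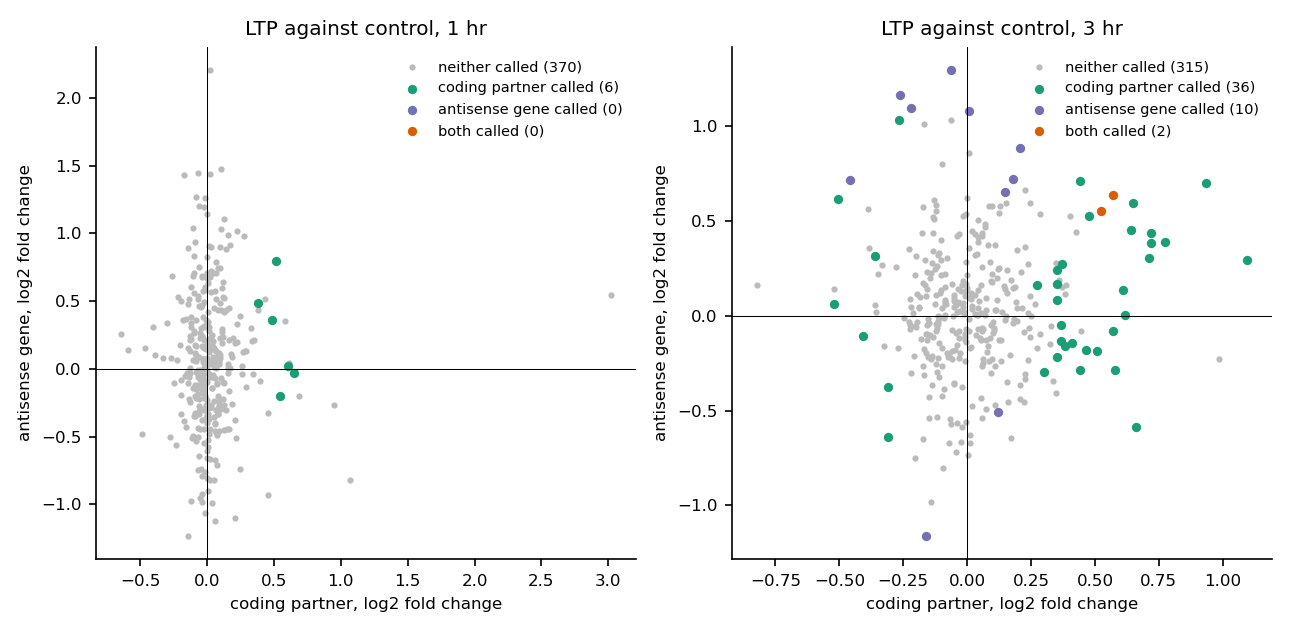
Log2 fold change of the antisense gene (vertical) against that of its coding partner (horizontal) after LTP at 1 hr and 3 hr, 1 point per pair tested on both sides, coloured by which gene was called. At 1 hr 6 partners and 0 antisense genes were called. At 3 hr 36 pairs had a called partner alone, 10 a called antisense gene alone and 2 both.

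The controls of both time points were compared to measure what differed without LTP. Time after treatment, time in the chamber and animals cannot be told apart here. Of 511 tested antisense genes, 94 differed (18.4%), 29 higher and 65 lower at 3 hr, where 32.8% of all 18584 genes differed (16.1% higher, 16.8% lower). At an unadjusted p under 0.05 it was 107 antisense genes (20.9%), against 42.1% of all genes. With 1 CPM or more, 54 of 168 were called (32.1%, against 37% of all genes at that level), 11 higher and 43 lower. The median log2 fold change was -0.09 over the antisense genes and -0.02 over all genes. With 1 hr control replicate 2 included 91 were called, 34 higher and 57 lower. It fell to 56 (22 higher, 34 lower) when replicate 3 of the 1 hr controls was left out, with a median of -0.01 against 0.02 over all genes. It was 60 (26 higher, 34 lower) when replicate 3 of the 3 hr controls was left out, with a median of -0.06. Without C130021I20Rik and Gm16099, which met the count minimum through 1 group alone, it was 92 of 509, 28 higher and 64 lower. The marker sums of microglia and oligodendrocytes given above differed between the same controls. So did the sum of the 5 endothelial and mural markers (91.0 to 100.1 CPM at 1 hr, 76.2 to 78.0 at 3 hr), though Cldn5 averaged higher at 3 hr. Among the CA pyramidal neuron markers, Neurod6 (317 to 163 CPM) and Grik4 averaged lower at 3 hr. Camk2a, Wfs1, Spink8 and Slc17a7 averaged higher. The part of these cell types in the control results was not tested.

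The antisense genes that were lower at 3 hr included Kcnq1ot1, Tug1, 4933431E20Rik and Dlx6os1, the 4 with the highest mean CPM. Tug1 (chr11:3639785-3649673) held 114, 93.7 and 116 CPM in the 1 hr controls and 92.2, 85.3 and 81.2 CPM in the 3 hr controls, and only the left-out replicate 2 came near the 3 hr range. It was lower by 0.45 on the log2 scale (SE 0.0862, edgeR adjusted p = 0.00198), and its divergent partner Morc2a had a log2 fold change of -0.05 (SE 0.0642). Dlx6os1 went from 39.8, 33.7 and 47.3 CPM to 31.9, 32.3 and 27.2 CPM (-0.54, SE 0.114, adjusted p = 0.00319), while Dlx6 did not pass the test (0.09, SE 0.276). 4933431E20Rik was lower by 0.28 on the log2 scale (SE 0.0686, adjusted p = 0.00822). The 5 inhibitory neuron markers summed to 427 to 502 CPM in the 1 hr controls and 450.5 to 493 in the 3 hr controls. On average Gad2 and Sst were lower at 3 hr and Gad1 and Slc32a1 higher, and the part of these cells in the Dlx6os1 result was not tested.

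Panct2 (chr1:96871126-96907796) had the smallest p of this comparison. It held 3.93, 3.87 and 4.6 CPM in the 1 hr controls and 2.51, 2.55 and 2.32 CPM in the 3 hr controls, a log2 fold change of -0.82 (SE 0.134, edgeR adjusted p = 0.000693). Its partner Slco4c1, an organic anion transporter gene, went from 5.71, 4.84 and 5.42 CPM to 3.74, 3.83 and 3.58 CPM (-0.61, SE 0.134), so that both strands were lower without overlap. 9330171B17Rik (chr7:79710283-79712357), whose exons lie opposite 877 coding bases of the hedgehog pathway kinesin gene Kif7, went from 2.58, 1.43 and 2.51 CPM to 1.3, 1.31 and 1.26 CPM (-1.01, SE 0.171, adjusted p = 0.000873). Kif7 had a log2 fold change of 0.43 (SE 0.189, adjusted p = 0.102), just outside the threshold, and was called in 10 of 18 alternatives.

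Gm11266, inside the transcription factor gene Nfib, was lower by 0.82 on the log2 scale (SE 0.159, edgeR adjusted p = 0.00198), from 3.41, 3.14 and 3.48 CPM to 2.18, 1.89 and 1.89 CPM. Nfib differed by -0.22 (SE 0.0699) and did not reach the fold change minimum. 6330418K02Rik went from 4.29, 4.22 and 4.38 CPM to 2.53, 2.96 and 2.8 CPM (-0.68, SE 0.136, adjusted p = 0.00245), and at 1 hr its LTP libraries, at 2.94, 2.79 and 2.82 CPM, already lay below their controls (-0.59, SE 0.166, adjusted p = 0.229). Its partner Gal3st4 was at 0 in all 12 libraries. 4931403E22Rik, convergent with the chromatin remodelling ATPase gene Smarca2, went from 36, 47 and 16 counts to 6, 8 and 3 counts (-2.45, SE 0.464, adjusted p = 0.00177).

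Of the 29 antisense genes higher in the 3 hr controls, 18 had a mean under 1 CPM. Gm15417, which overlaps the start of the transcription factor gene Zbtb7b, went from 0.697, 1.34 and 0.995 CPM to 1.8, 1.79 and 2 CPM (1.10, SE 0.207, edgeR adjusted p = 0.00168), and Zbtb7b did not pass the test (0.09, SE 0.147). Tmem74bos was higher by 1.89 (SE 0.396), Gm11973, divergent from Purb, by 1.83 (SE 0.462) and Gm26982 by 0.47 (SE 0.128). Gm9754, inside the F-box gene Fbxw8, went from 0.904, 1.28 and 0.592 CPM to 1.84, 1.61 and 2.37 CPM (1.35, SE 0.357, adjusted p = 0.0115), and its call was lost without 1 hr control replicate 3 (highest adjusted p 0.121). Fbxw8 went from 40.7, 46.6 and 38.6 CPM to 52.2, 56.4 and 54 CPM (0.42, SE 0.0769), so that both genes of this pair were higher at 3 hr.

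Between the controls, 77 of 427 pairs had a called antisense gene and 147 a called partner. Some pairs would therefore have both genes called with no link between the strands. Both differed in 21 pairs, 16 in the same direction (4 higher, 12 lower) and 5 in opposite directions. All 7 divergent pairs moved together, among them Gm26653/Grin2b (-0.98 and -0.34), Gm16070/Crispld1 (-0.87 and -0.60), 4930539J05Rik/Ube2d3 (-0.58 and -0.40), Gm4419/Ywhaq (-0.60 and -0.27) and 1600020E01Rik/Pcbp1 (0.27 and 0.75). All 4 inside pairs, the 1 spanning pair and 4 of 5 start overlap pairs also moved together. The 4 convergent pairs all moved in opposite directions. Over all 427 pairs, 235 (55%) had the same sign (43.2% of the 81 pairs with no exonic base in common), 67 of 105 divergent ones (63.8%) and 55 of 106 convergent ones (51.9%), and the median antisense log2 fold change was -0.38 where a divergent partner was lower and 0.16 where it was higher. The difference between arrangements was not tested.

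In 3 of the 5 opposite pairs the antisense gene was higher and the coding gene lower at 3 hr. Rab10os went from 18.7, 20.1 and 18.5 CPM in the 1 hr controls to 22.5, 23.6 and 25.8 CPM in the 3 hr controls (0.34, SE 0.0943, edgeR adjusted p = 0.0153), while Rab10, a vesicle traffic GTPase gene, went from 280, 228 and 270 CPM to 209, 209 and 193 CPM (-0.46, SE 0.0741, adjusted p = 0.000616). Neither gene overlapped between the controls, and both kept their calls in all 18 alternatives. C230034O21Rik went from 1.11, 0.952 and 0.971 CPM to 1.86, 1.74 and 2.14 CPM (0.85, SE 0.223, adjusted p = 0.0111), and Fat4 from 103, 94.6 and 94.2 CPM to 83.6, 70.4 and 88.1 CPM (-0.31, SE 0.122, adjusted p = 0.0651), its call being lost in 6 alternatives. In the pair Gm4673/Lsr, counted over the whole genes, Gm4673 was higher by 0.50 (SE 0.173, adjusted p = 0.0416) and Lsr lower (-0.56, SE 0.207, adjusted p = 0.054), from 2.79, 2.61 and 2.51 CPM to 2.16, 1.79 and 1.56 CPM.

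In the other opposite pairs the antisense gene was lower and the coding gene higher at 3 hr. Gm13031 had a log2 fold change of -0.64 (SE 0.23) and Padi2, which encodes an enzyme that turns arginine into citrulline, of 0.28 (SE 0.0986). 1500015A07Rik had -0.42 (SE 0.146) and Afap1l1, an actin filament-associated protein gene, 0.32 (SE 0.1). With the exception of Rab10os/Rab10, each of the 5 opposite pairs held at least 1 gene whose call was lost in an alternative, among them the fits without 1 hr control replicate 1 (Gm4673, Lsr, Fat4, 1500015A07Rik, Gm13031) and without 1 hr control replicate 3 (Lsr, Fat4, 1500015A07Rik, Afap1l1, Gm13031, Padi2), with edgeR adjusted p up to 0.376.

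**Figure D5:**
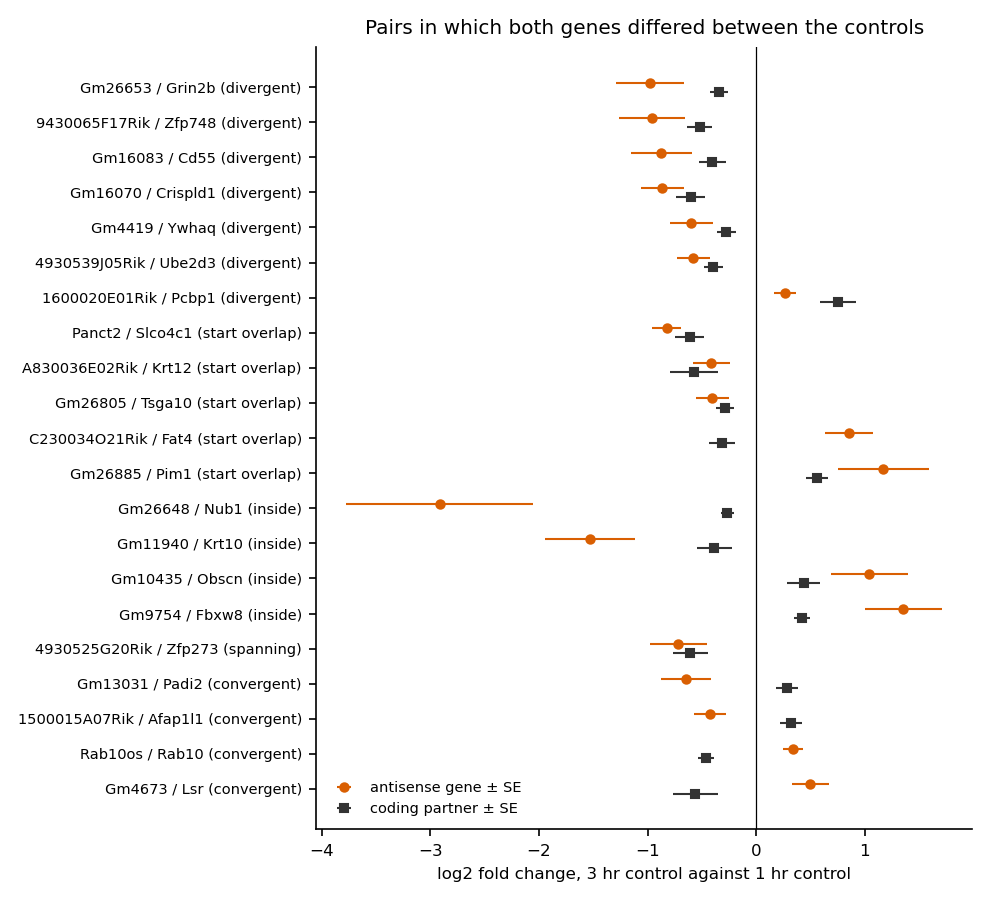
Log2 fold change between 3 hr and 1 hr controls (horizontal) of the antisense gene (orange circles) and coding partner (black squares) in the 21 pairs in which both were called, grouped by arrangement. Bars are SE from edgeR. All 7 divergent pairs lie on the same side of 0 and all 4 convergent pairs on opposite sides.

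The 3 hr LTP comparison and the control comparison share the 3 hr controls, so their values are set side by side without a measure of agreement. Of the 15 antisense genes that rose at 3 hr after LTP, 4 were lower in the 3 hr than in the 1 hr controls (Kcnq1ot1, Gm16070, Gm11940 and 4921504A21Rik), 1 was higher (C130021I20Rik) and the other 10 were not called there. Both genes that fell after LTP, Gm11738 and Gm4673, were higher in the 3 hr than in the 1 hr controls. The change of the LTP effect from 1 hr to 3 hr was called in 0 of 511 antisense genes by edgeR, where 0.0592% of all genes were called (0.0269% higher, 0.0323% lower). At an unadjusted p under 0.05 it was 32 (18 higher, 14 lower), or 6.26% against 6.59% of all genes. DESeq2 called 1 and limma-voom 0.

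Most antisense genes that lie wholly opposite other exons had counts. Among genes with the same ID version in the tables and in M21, 32 of 38 antisense genes whose exons lie wholly under exons of the other strand had counts, and so had 22 of 27 such coding genes, while 37 of 37 coding genes lying wholly under exons of another gene on their own strand were at 0, as were 424 of 521 such genes of any type. With other ID versions included, 48 of 54 such coding genes were at 0. These numbers show that counting used the strand. How many antisense counts came from reads of the coding RNA placed on the wrong strand was not measured. Some antisense genes stood far below their partner, such as Chn1os1 at 0.476% of Chn1 per kb. Gm12534, chosen here after its values were seen, all of whose 469 exonic bases lie opposite exons of the interleukin gene Il21, held 0.714, 0.719 and 0.739 CPM in the 3 hr controls and 1.02, 1.16 and 1.21 CPM after LTP. Its log2 fold change was 0.66 (SE 0.18) and that of Il21 0.15 (SE 0.216, edgeR adjusted p = 0.75). The ratio of an antisense gene to its partner, log2 of CPM with 0.1 added, had a median over 456 pairs between -5.30 and -5.10 in every library.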

How the data were processed

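Per the labels and the study's methods, total RNA of hippocampal slices was depleted of ribosomal RNA and sequenced with a stranded kit. The authors aligned paired-end reads to GRCm38/mm10 with STAR and deposited raw counts per gene with Bioconductor packages, 1 table per time point; the annotation release and strand setting are not given in the sources used here. Their processing notes also name DESeq2. Of 41091 gene IDs, 40217 matched GENCODE M21 without version. Of the 513 antisense genes, 329 had the same versioned ID, so lengths and overlaps of the others are those of M21, not surely those counted. The number of other columns of per-sample values was 0.

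Counts were tested by edgeR's quasi-likelihood method (edgeR 4.0.16, R 4.3.3, limma 3.58.1) over all genes after filterByExpr and TMM scaling, with Benjamini-Hochberg adjustment, called at adjusted p under 0.1 and fold change over 1.2 (no fold minimum for the change of the LTP effect). Separate fits served 1 hr (5 libraries) and 3 hr (6 libraries), and comparisons across time points in a model of 11 libraries. SE is that of the log2 fold change. On simulated counts, with changes set in genes of more counts than the median antisense gene, 99% of 2-fold changes were recovered at 1 hr, 100% at 3 hr, 98% between the controls and 94% for the change of the LTP effect. The simulation gave every gene the same fixed spread between libraries. It therefore cannot tell how many changes would be found at the level and spread of the antisense genes. Animals pair LTP with control libraries per the labels. The correlation of their deviations from group means, over 18240 genes, was -0.02, -0.13 and 0.07 at 1 hr and 0.03, -0.04 and 0.19 at 3 hr. Nothing states that the time points used the same animals. The main tests had no term for animal and treated LTP and control slices of an animal as independent. With 3 samples a group (2 for the 1 hr controls as tested), p-values rest on the spread between these few animals. Across time points this spread was estimated over all 11 libraries, LTP ones included.

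Antisense genes were named by a rule: the 6 called with the smallest p in each direction per comparison, the 6 highest per kb, the imprinted list, the 6 with the smallest partner p per LTP comparison, pairs called in opposite directions, and antisense genes opposite the activity list. The antisense genes and lists were chosen with earlier results of these data known. Alternatives were DESeq2 1.42.0, limma-voom, other scalings and filters, an animal block, other member rules and leaving out each library. The check of members whose gene model is that of M21 was chosen after seeing the data.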

Additional observations from a re-analysis of the deposited data

Results flagged for a closer look

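Gm26982 and Panct2 were singled out because, with the animals taken as pairs, all 3 LTP slices lay below their control at 1 hr and all 3 above it at 3 hr. For Gm26982, a small gene convergent with the ghrelin gene Ghrl, the LTP libraries held 3.67, 3.56 and 3.08 CPM at 1 hr against 4.05, 4.12 and 3.65 in the controls, and 5.75, 5.58 and 6.04 CPM at 3 hr against 5.6, 5.01 and 5.74. The change of the LTP effect was 0.26 on the log2 scale. For Panct2 the LTP libraries held 3.52, 3.32 and 3.43 CPM at 1 hr against 3.93, 3.87 and 4.6, and 2.68, 3.01 and 2.93 CPM at 3 hr against 2.51, 2.55 and 2.32, a change of 0.55. The sign pattern itself was not tested, and the edgeR test of the change gave adjusted p = 0.878 and 0.546. The same kind of pattern, in either order, appeared in 24 of the 513 antisense genes (4.68%) and in 2.13% of all 18332 genes with the same count minimum, with no test of the difference. These pairs include 1 hr control replicate 2, which was left out of the tests.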

How the results depend on the processing

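At 1 hr the count of called antisense genes was 0 in 14 of 16 alternatives and 2 with no filter beyond 1 count, and leaving out 1 library gave 0 to 2 (2 without LTP replicate 3). At 3 hr it was 17, 9 by DESeq2, 3 among 101 antisense genes with no shared exonic base and 9 among 273 with the M21 gene model, where fewer genes were counted, and leaving out 1 library gave 2 to 27. Between the controls it was 94, 19 among 121 with no shared exonic base and 54 among 328 with the M21 gene model, and leaving out 1 library gave 56 to 101. The change of the LTP effect gave 0, 1 by DESeq2 and 1 with no filter beyond 1 count. With animal as a replicate block the pairing gave 19 at 3 hr (15 higher, 4 lower). The block with 1 hr control replicate 2 restored gave 0 at 1 hr and 0 for the change of the LTP effect, and no paired fit of the control comparison was possible because the labels do not say that any animal is shared between time points. Total counts as scaling gave 12 higher and 3 lower at 3 hr. The share of pairs with the same sign between the controls was 43.2% among 81 pairs with no exonic base in common, against 55% of all pairs. For DESeq2, the filter and this share the cause was not tested. Of 1526 repeats for genes named by the rule and their partners, 0 turned a call to the other direction, 1445 kept their side of the threshold, 66 lost and 15 gained a call.

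Depth limits these genes: the floor of 3 counts was 0.0584 to 0.0791 CPM, and 13 of the 513 were at 0 in at least 1 library.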

Other observations

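Gm15564, the highest antisense gene per kb (28.8 CPM per kb), varied more between libraries of a group than between groups. It held 12.6, 15.9 and 0.426 CPM in the 1 hr controls and 12.4, 1.85 and 0.987 CPM after LTP. At 3 hr it held 56.6, 80.3 and 9.61 CPM in the controls and 1.45, 0.33 and 91.4 CPM after LTP. No comparison called it in the fits above (adjusted p = 0.834 at 3 hr by edgeR), but leaving out 3 hr LTP replicate 3 alone gave a log2 fold change of -5.77 with an adjusted p of 0.0153, against 0.0153 to 0.990 over all alternatives. Parp9 opposite it ranged from 4.76 to 7.65 CPM.

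Antisense genes took 0.118% ± 0.00181 (SD, n = 3) of all counts in the 3 hr LTP libraries and 0.108% ± 0.003 in the 3 hr controls. Without Kcnq1ot1 the share was 0.0918% to 0.0948% in the 3 hr LTP libraries and 0.0873% to 0.0947% in the controls, and the ranges overlapped.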
